A study of Mus musculus with 6 samples.

Results

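The mitochondrial ribosomal proteins are the nuclear-encoded proteins of the ribosome inside mitochondria, and their genes were taken here by symbol. Every gene whose platform name was Mrpl or Mrps followed by a number, with at most 1 further letter, was a member, provided that its probe sets carried no second name. The rule found 75 of the 23152 genes with a single name, 46 named Mrpl and 29 named Mrps, measured by 592 of the array's 269751 probe sets. Of the 75 members, 74 lay above a filter on dim genes and entered the comparison. Mrpl30 did not. The rule uses names and no measured values.

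The cells were splenic regulatory T cells (Tregs), which restrain immune responses, sorted as CD4+CD25high cells. All mice were male and 45 weeks old. The 3 mice of the KO group were DJ-1-/-, without the protein DJ-1 that the gene Park7 encodes, and the 3 mice of the WT group were their DJ-1+/+ littermates. The mice of both groups were untreated, and each mouse gave 1 RNA sample and 1 Affymetrix Mouse Gene 2.0 ST array, so n = 3 in each group throughout. No Cre driver or cell type is named for the deletion, and which exons it removes is not stated in the labels. The series title names pyruvate dehydrogenase activity and Treg homeostasis in ageing, and the arrays ask which transcripts differ between KO and WT Tregs.

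The mitochondrial ribosome translates the few proteins that mitochondrial DNA encodes, all of them subunits of the respiratory chain and ATP synthase. Its RNA comes from mitochondrial DNA, whereas its proteins are made in the cytosol from nuclear genes and imported. The large subunit joins amino acids and releases the new chain through an exit tunnel, and the small subunit reads the messenger RNA. Some of its proteins descend from those of the bacterial ribosome and others are found only in mitochondria. T cells need mitochondrial translation to build respiratory capacity when they are activated.

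Levels are given as log2(intensity + 16), where a gene's value is the median of its probe sets, so differences of dim genes are understated. Levels of different genes are not comparable on this scale. Values of single arrays are given in the order of replicates 1, 2 and 3, and differences are KO minus WT. Park7 read 9.48 ± 0.21 in the WT mice and 5.91 ± 0.18 in the KO mice (± is the SD, n = 3), in the direction of the labels. Foxp3, the defining transcription factor of Tregs, read 12.66 ± 0.02 in the WT mice and 12.72 ± 0.03 in the KO mice, and Il2ra, which encodes CD25, read 12.55 ± 0.05 in the WT mice and 12.55 ± 0.12 in the KO mice. KO replicate 1 stood apart, with the lowest median intensity (88.6, against 95.3 to 100.2 on the others) and the weakest correlation, on average, with the rest (0.951, against 0.957 to 0.964). It gave the lowest value of the 6 arrays for 28 of the 74 tested members and for 38.2% of all tested genes. Summed levels of several marker lists were also lower in KO. All 19 cell cycle genes on the array had lower means, with summed intensities of 7848 to 9034 in WT and 4940 to 7181 in KO. For B cell markers 6 of 8 were lower, with sums of 5241 to 5566 in WT and 3181 to 3882 in KO. These 8 were H2-Aa (-1.26), H2-Ab1 (-1.24), Cd74 (-0.67), Cd79a (-0.23), Cd79b (-0.17), Cd22 (-0.03), Pax5 (0.06) and Ms4a1 (0.13). The groups did not overlap in H2-Aa, H2-Ab1 and Cd74, and overlapped in the others. For macrophage markers 8 of 9 were lower, with sums of 711 to 1046 and 570.2 to 685. Their groups did not overlap in C1qc, Csf1r and Vcam1, lower, and in Fcgr1, higher (0.35, below the filter on dim genes). For NK and cytotoxic genes 8 of 9 were lower, with sums of 3345 to 4626 and 1938 to 2891. Here the groups did not overlap in Ccl5, Gzmk, Klrd1, Ncr1 and Nkg7, lower, and in Klrb1c, higher (0.28). The defining B cell genes Ms4a1 and Pax5 lay below the filter on dim genes, and no marker's probe set was at 0 on all 6 arrays. Of 7 Treg markers 6 had lower means in KO (sums of 31946 to 32281 in WT and 29940 to 31264 in KO), and of 4 erythroid markers 4 (sums of 391 to 505 and 251 to 506). The part of these shifts in the values of the members was not tested. In sorted cells, fewer cells of a type and less RNA per cell cannot be told apart.

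The members lie at many places in the genome, and a RefSeq promoter table of build GRCm38.p6 held 72 promoters of 66 members, each running from 250 bases before the start of the gene to 50 after it. Mrpl4, Mrpl13, Mrpl15, Mrpl19, Mrpl38, Mrpl54, Mrps28, Mrps34 and Mrps35 were not in it. Letters of 3 factors known to bind promoters of nuclear genes for mitochondrial proteins were searched on both strands. The nuclear respiratory factor 1 letters, GCGCA and GCGC with any 1 base between them, were in 16.7% of the members' promoters, against 4.60% of all 32851 promoters in the table. The ETS factor letters CCGGAAG were in 31.9%, against 8.86%. The YY1 letters AANATGGC were in 27.8%, against 6.05%. The TATA box letters TATAAA were in 6.94%, against 13.6%. At least 1 of the first 3 was in 44 of the 72, and matches to different ones of them overlapped in 0, and the same share over all promoters was 17.4% against 61.1% of the members'. The shares over all promoters were not limited to protein-coding genes, whereas all members encode proteins. A match describes the letters and does not show binding. In the 150 bases before the start, Mrps6 and Mrps7, also lower in KO, and Mrps36, higher in KO, carried none of these letters. Outside those bases, Mrps7 carried the YY1 letters from base 19 after the start, and Mrpl17 the ETS letters from 237 bases before it. The 150 bases before the start are given below for 3 members described below for their lower values in KO that carry such letters, 5′ to 3′ on the strand of the gene, with each match in capitals (nuclear respiratory factor 1 in Mrpl17, YY1 on the opposite strand in Mrpl36, ETS in Mrpl3). They lie at chr7:105811088-105811237 on the minus strand, chr13:73330859-73331008 on the plus strand and chr9:105053118-105053267 on the plus strand.
Mrpl17: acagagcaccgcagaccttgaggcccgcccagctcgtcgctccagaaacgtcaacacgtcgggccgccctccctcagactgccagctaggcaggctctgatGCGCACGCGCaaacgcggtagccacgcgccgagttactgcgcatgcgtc
Mrpl36: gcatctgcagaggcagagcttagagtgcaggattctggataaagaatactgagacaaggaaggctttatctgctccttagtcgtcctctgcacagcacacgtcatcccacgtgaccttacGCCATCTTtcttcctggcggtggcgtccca
Mrpl3: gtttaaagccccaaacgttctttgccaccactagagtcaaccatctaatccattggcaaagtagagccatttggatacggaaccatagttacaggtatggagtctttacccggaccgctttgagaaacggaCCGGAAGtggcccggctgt

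Many members share their start region with another gene. A protein-coding gene began within 1000 bases and read in the opposite direction, away from the member, for 24 of the 66 members in the promoter table (36.4%), against 8.66% of 17492 protein-coding genes. Mrpl46 and Mrps11, a large and a small subunit gene, formed such a pair with each other, and the 41 bases between their starts (chr7:78783090-78783130, GRCm38.p6, minus strand) are shown because 2 members share them.
Mrpl46 to Mrps11: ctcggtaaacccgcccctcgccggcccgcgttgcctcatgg
On the arrays Mrpl46 differed by 0.09 and Mrps11 by -0.06 (KO minus WT), and neither passed. Mrps11 turned to 0.13 without KO replicate 3. Other partners belong to mitochondrial gene expression, namely Twnk, the mitochondrial DNA helicase, beside Mrpl43 and Sars2, the mitochondrial seryl-tRNA synthetase, beside Mrps12. Twnk, which the array names Peo1, differed by 0.18 and Mrpl43 by -0.10. Mrps12 differed by 0.03 and Sars2 by -0.16, and Mrps12 was -0.14 without KO replicate 3. Mrps7 began 224 bases from Gga3, an adaptor of Golgi transport, and differed by -0.40 where Gga3 differed by 0.04. With all arrays the pairs above had opposite signs. So did some of the other pairs, such as Mrpl14 (-0.31) with Tmem63b (0.45) and Mrpl48 (-0.29) with Rab6a (0.21). Further pairs had the same sign, and pairs of either kind were not counted. Mrpl18 differed by -0.37 and its partner Tcp1 by -0.27, and Mrps27 by -0.22 and its partner Ptcd2 by -0.35. Without KO replicate 1 Mrpl18 was -0.25 and Mrps27 -0.08. Of the 23 partner genes tested, 0 passed an adjusted p of 0.05.

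The main comparison was KO against WT for each member. No member passed. By limma with Benjamini-Hochberg adjustment over all 13891 tested genes, 0 of 74 had an adjusted p under 0.05, where 0.274% of all tested genes did (0.266% lower and 0.0072% higher in KO), and the lowest adjusted p among the members was 0.281 (Mrpl13). At an unadjusted p under 0.05 there were 8, of which 7 were lower in KO (Mrpl13, Mrpl3, Mrpl54, Mrpl36, Mrpl17, Mrps6 and Mrps7) and 1 higher (Mrps36). That is 10.8% of the members, against 10.7% of all tested genes (7.67% lower and 2.99% higher). The count depended on the setting, and so did the share of all tested genes. It was 5 (6.67% of members, 6.70% of all tested genes) without WT replicate 2, 13 (17.6% of members, 12.5% of all tested genes) without KO replicate 2, 5 (6.76% of members, 11.5% of all tested genes) with each array centred on its median and 4 (5.41% and 12.2%) with the mean of probe sets in place of the median.

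The KO and WT values of 11 of the 74 tested members did not overlap, all 11 lower in KO (11.3% of all tested genes lay so, and 6.1% the other way with no tested member). They were the 6 lower genes just named other than Mrpl3, together with Mrpl2, Mrpl10, Mrpl14, Mrpl19 and Mrpl39. The arrays limit how large a change could have been missed. The 95% interval of the difference, not adjusted for the number of genes, lay inside 1 log2 unit in either direction for 71 of the 74, with a median half-width of 0.38. For Mrpl13, Mrpl15 and Mrps31 it reached a lower level of 1 log2 unit or more, and for 0 it reached 1 unit higher.

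**Figure D1:**
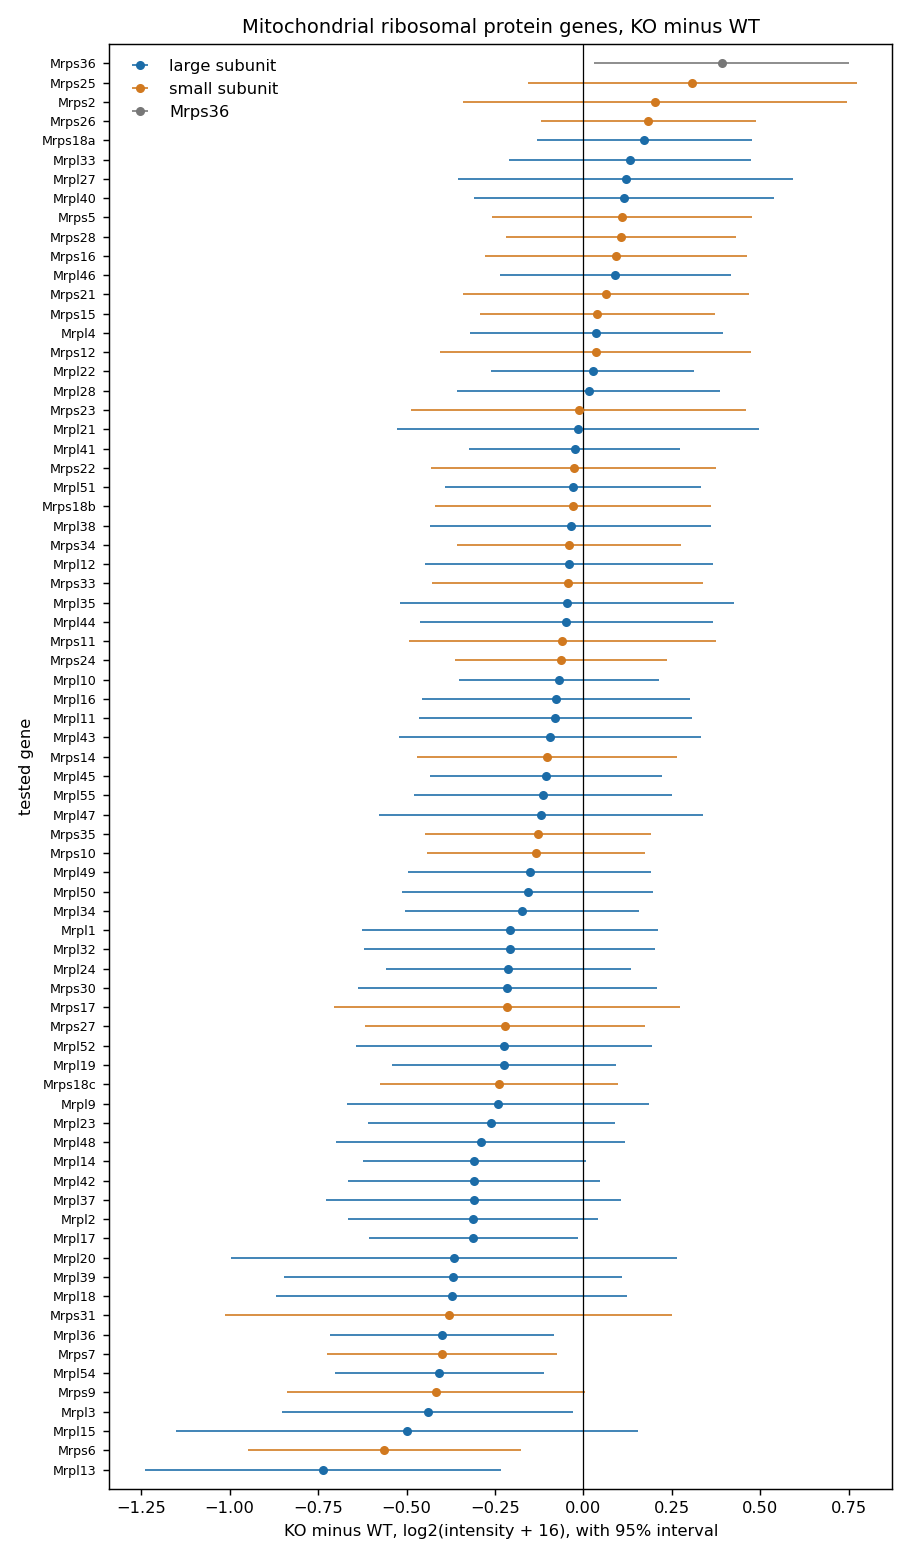
Difference of each of the 74 tested members between KO and WT (x axis, log2(intensity + 16); each row is a gene, with its 95% limma interval, n = 3 arrays per group). Colours mark the subunit in the assembled ribosome. The interval excludes 0 for 7 genes below and 1 above, and Mrpl13 at -0.74 and Mrps36 at 0.39 are the ends of the range.

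As a group the members had a median difference of -0.10 log2 units, with negative differences in 56 of 74 (75.7%), beside a median of -0.05 and 59.7% over all tested genes. This direction depended on the scale between arrays. Centring each array on its median over tested genes moved the median of all tested genes by 0.10. The members' median was then -0.00245, with 38 of 74 negative (51.4%, against 41.1% of all tested genes). With quantile normalization the members' median was -0.06, with 45 negative (60.8%, against 52.0% of all tested genes). Relative to the median of all tested genes the members lay at -0.05 as deposited, a value that centring cannot alter because it shifts all genes alike, and at -0.05 after quantile normalization. Without WT replicate 1 the members' median was -0.16, beside -0.08 over all tested genes. Without KO replicate 1 it was -0.09, beside -0.00872 over all tested genes. In the main comparison and in each of the 6 with an array left out, 36 members kept a lower value and 9 a higher one. The like count over all tested genes was not made, so these counts do not set the members apart from other genes.

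Large and small subunit genes were then taken apart. Among genes named Mrpl, 38 of 45 were negative with a median of -0.16, and among those named Mrps 18 of 29 with a median of -0.04, and the difference between them was not tested. After median centring the medians were -0.06 and 0.06, and after quantile normalization -0.11 and 0.01, so the sign of the small subunit turned. Centring moves every gene by the same 0.10 and turned the median of all tested genes too, to 0.05. The small subunit's sign also turned without WT replicate 3 (0.04). Names do not always give the subunit. Mrps30 and Mrps18a sit in the large subunit of the assembled ribosome, and Mrps36 is now known as a part of the 2-oxoglutarate dehydrogenase complex. Grouped by structure, 39 of 47 large subunit genes were negative (median -0.16) and 17 of 26 small subunit genes (median -0.04).

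**Figure D2:**
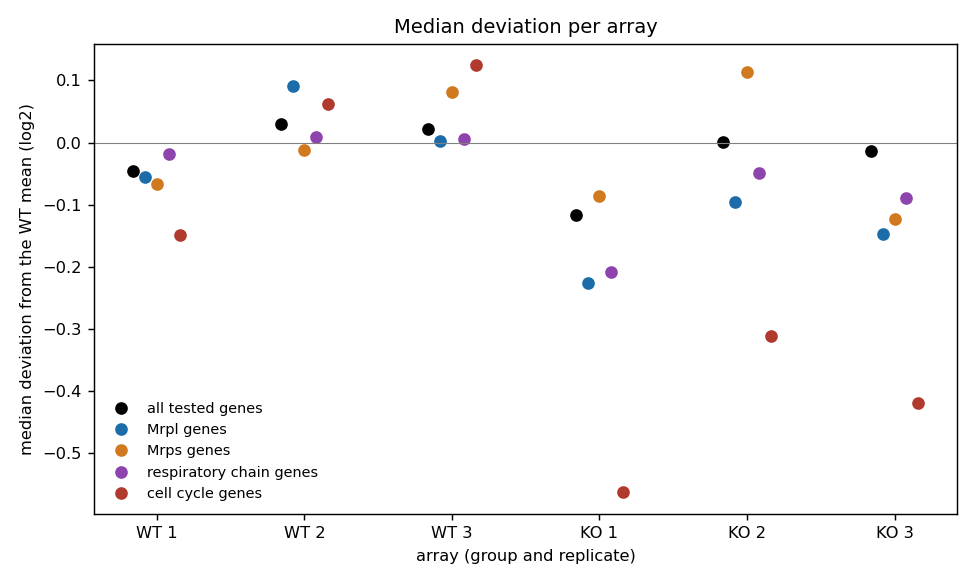
Median deviation of each gene group from its WT mean on each array (y axis, log2 units; x axis, the 6 arrays; each point is 1 group on 1 array). The Mrpl genes lie at -0.23, -0.10 and -0.15 on the KO arrays and the Mrps genes at -0.09, 0.11 and -0.12.

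On single arrays the median deviation of the Mrpl genes from their WT means was -0.06, 0.09 and 0.00 on the WT arrays and -0.23, -0.10 and -0.15 on the KO arrays. The KO arrays lay below the WT arrays without overlap. For the Mrps genes the same values were -0.07, -0.01 and 0.08 in WT and -0.09, 0.11 and -0.12 in KO, so that KO replicate 2 was the highest of the 6 and the groups overlapped. All tested genes lay at -0.12, 0.00 and -0.01 on the KO arrays, and the cell cycle genes at -0.56, -0.31 and -0.42. The nuclear respiratory chain genes lay at -0.02, 0.01 and 0.01 in WT and -0.21, -0.05 and -0.09 in KO. Their groups did not overlap either, so this separation is not particular to the Mrpl genes.

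Mrpl13, the counterpart of bacterial L13, which binds ribosomal RNA early in assembly, had the lowest difference of all. It read 7.86, 8.10 and 7.66 on the WT arrays and 6.66, 7.56 and 7.19 on the KO arrays. All KO values were below all WT values, with KO replicate 1 the lowest. The difference was -0.74 (SE 0.22, 95% interval -1.24 to -0.23, limma adjusted p = 0.281), and -0.50 without KO replicate 1. Its size rested on how probe sets were combined. All 8 of its probe sets were lower in KO, with differences of -0.71 to -0.01, so the gene value differed by more than any of them, since the median fell on different probe sets in different arrays. With each probe set centred on its mean over the arrays before the median was taken, an alternative chosen after the data were seen, the difference was -0.44 (adjusted p = 0.166).

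Mrpl54, a protein found only in mitochondrial ribosomes that lies near the stalk where translation factors bind, was lower in KO by a like amount in all its probe sets. It read 8.40, 8.44 and 8.33 on the WT arrays and 7.90, 7.94 and 8.10 on the KO arrays. The difference was -0.41 (SE 0.13, interval -0.70 to -0.11, adjusted p = 0.305), with no overlap of the groups. Its 4 probe sets differed by -0.49 to -0.40, a narrow range, and after centring of probe sets the difference was -0.42 (adjusted p = 0.125, the lowest of the members under that setting). With any 1 array left out it stayed between -0.47 and -0.37.

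Mrpl36, the counterpart of the small zinc-binding bacterial protein L36, whose start region is shown above, read 7.51, 7.59 and 7.55 on the WT arrays and 6.95, 7.26 and 7.25 on the KO arrays. KO replicate 1 was the lowest, and the groups did not overlap. The difference was -0.40 (SE 0.14, adjusted p = 0.353), -0.30 without KO replicate 1 and -0.25 after centring of probe sets. Mrpl17, whose bacterial counterpart L17 stands at the mouth of the exit tunnel, read 9.90, 9.72 and 9.76 on the WT arrays and 9.53, 9.50 and 9.42 on the KO arrays. It differed by -0.31 (adjusted p = 0.443), again without overlap, but with the mean of its 5 probe sets in place of the median it differed by 0.0379, and its highest probe set differed by 1.09. Mrpl3, whose bacterial counterpart L3 reaches towards the site where peptide bonds form, read 9.07, 9.57 and 9.37 on the WT arrays and 8.65, 9.16 and 8.88 on the KO arrays. WT replicate 1 lay below KO replicate 2, and the difference was -0.44 (adjusted p = 0.437).

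**Figure D3:**
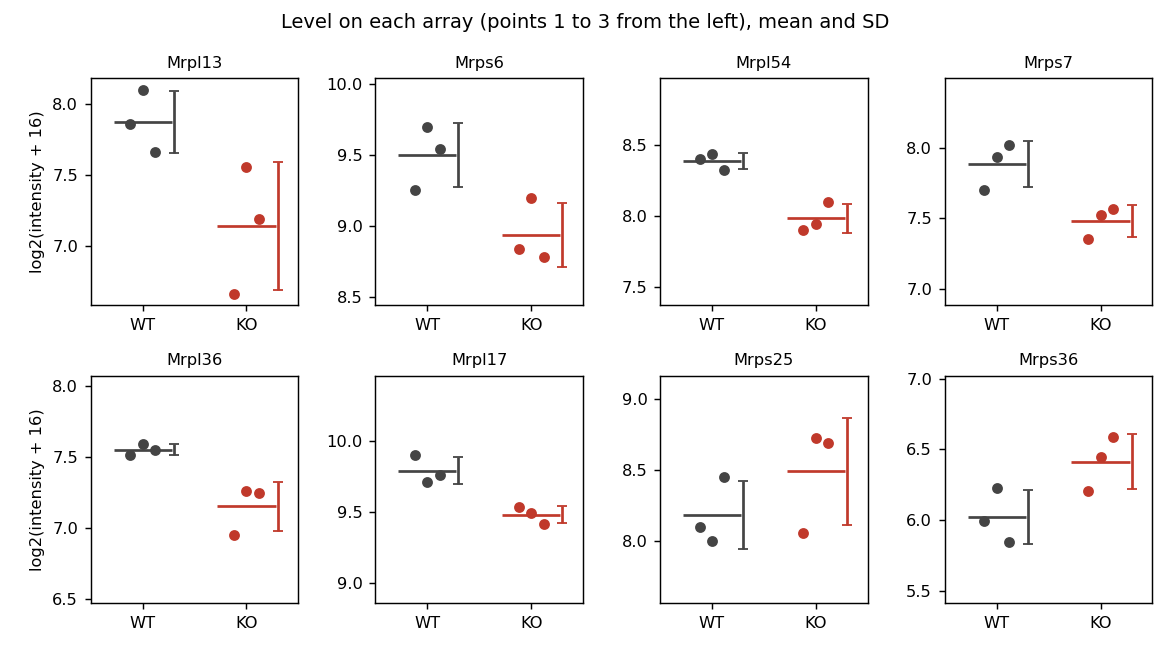
Levels of 8 members on the 6 arrays (y axis, log2(intensity + 16), the same span in each panel; points 1 to 3 from the left are replicates 1 to 3, lines the group means and bars the SD). The 6 genes from Mrpl13 to Mrpl17 have all KO points below all WT points, and Mrps25 and Mrps36 have overlapping groups.

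Leaving out KO replicate 1 brought 28 of the 74 tested members to a difference of the opposite sign or more than 1.5 times smaller, and leaving out another array did so for 14 to 24. These counts were not made over all tested genes, of which KO replicate 1 gave the lowest value for 38.2%. The 3 members with the largest spread within groups were among the 28. Others were Mrps17 (-0.22, and 0.01 without that array), Mrpl1 (-0.21 and -0.01), Mrps30 (-0.21 and -0.02) and Mrpl39 (-0.37 and -0.11). Mrpl15, the counterpart of bacterial L15, read 9.23, 9.49 and 9.33 on the WT arrays and 8.05, 9.29 and 9.22 on the KO arrays. Its difference was -0.50 (adjusted p = 0.591) and -0.0969 without KO replicate 1. Mrps31, a small subunit protein found only in mitochondria, read 7.34, 7.37 and 7.30 on the WT arrays and 6.19, 7.48 and 7.21 on the KO arrays. It differed by -0.38 with KO replicate 1 and by 0.00339 without it, and KO replicate 2 was the highest of the 6 arrays. Mrpl20, the counterpart of bacterial L20 and the 1 member within 10 Mb of Park7, read 7.10, 7.55 and 7.16 on the WT arrays and 6.29, 7.55 and 6.89 on the KO arrays. Its difference of -0.37 (adjusted p = 0.684) was -0.0548 without KO replicate 1.

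By position in the ribosome, the 4 tested genes of the stalk that recruits translation factors were all negative (median -0.07), Mrpl10, Mrpl11, Mrpl12 and Mrpl54. Mrpl10, the anchor of the stalk, had the tightest values of the members, 9.60, 9.56 and 9.58 on the WT arrays and 9.56, 9.50 and 9.48 on the KO arrays. The groups did not overlap, yet the difference was only -0.07 (adjusted p = 0.877). Mrpl12, the stalk protein that also binds the mitochondrial RNA polymerase, differed by -0.04, which turned to 0.13 without WT replicate 2 and 0.05 without KO replicate 2. Of 6 genes around the exit tunnel 5 were negative (median -0.17), among them Mrpl45, which holds the ribosome to the inner membrane (-0.11, and -0.00870 without KO replicate 2), and of 7 genes of the central protuberance 4 were (median -0.04). None of these genes passed.

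Proteins with a bacterial counterpart and proteins found only in mitochondria were compared next, without a test of the difference. In the large subunit 24 of 29 of the first kind were negative (median -0.21) and 15 of 18 of the second (median -0.13). In the small subunit the counts were 9 of 16 (median -0.06) and 8 of 10 (median -0.04).

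Among small subunit genes the lowest was Mrps6, the counterpart of bacterial S6. It read 9.26, 9.70 and 9.55 on the WT arrays and 8.84, 9.20 and 8.78 on the KO arrays. Every KO value lay below every WT value, though KO replicate 2 came close to WT replicate 1. The difference was -0.56 (SE 0.17, interval -0.95 to -0.18, adjusted p = 0.284). As for Mrpl13, this gene value lay beyond all of its probe sets (-0.54 to 0.05, 3 of 5 negative), and it was -0.35 after centring of probe sets. Mrpl13 and Mrps6 were the 2 of 74 tested members whose gene value lay outside the range of their probe sets, and 153 of 13891 tested genes did so, 94 of them below it.

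Mrps7, whose bacterial counterpart S7 starts the assembly of the small subunit head, read 7.70, 7.93 and 8.02 on the WT arrays and 7.36, 7.53 and 7.57 on the KO arrays. The groups did not overlap and all 9 of its probe sets were lower in KO, with a gene difference of -0.40 (adjusted p = 0.362) and -0.19 after centring of probe sets. Mrps9, the counterpart of bacterial S9, read 7.74, 8.003 and 8.21 on the WT arrays and 7.26, 7.60 and 7.84 on the KO arrays. WT replicate 1 lay below KO replicate 3, and the difference was -0.42 (adjusted p = 0.473), -0.26 without KO replicate 1 and -0.18 after centring. Mrps18c, a counterpart of bacterial S18, differed by -0.24 (adjusted p = 0.614), and -0.15 without WT replicate 1, with overlapping groups.

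The highest values in KO were small and overlapped between groups in every tested member. Mrps36, the subunit that links the enzymes of the 2-oxoglutarate dehydrogenase complex, read 5.997, 6.23 and 5.84 on the WT arrays and 6.21, 6.44 and 6.59 on the KO arrays. WT replicate 2 lay just above KO replicate 1, and the difference was 0.39 (SE 0.16, interval 0.03 to 0.75, adjusted p = 0.430). After centring of probe sets it was 0.25. The gene is dim on these arrays, and its 6 probe sets ranged from -0.35 to 0.73.

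Mrps25, a small subunit protein found only in mitochondria, read 8.09, 7.998 and 8.45 on the WT arrays and 8.06, 8.72 and 8.69 on the KO arrays. KO replicate 1 lay among the WT arrays, and the difference was 0.31 (adjusted p = 0.639), 0.52 without that array. Dropping KO replicate 2 or 3 instead gave 0.19 and 0.21. Mrps2, the counterpart of bacterial S2, read 7.82, 8.23 and 7.92 on the WT arrays and 8.58, 8.40 and 7.61 on the KO arrays, with KO replicate 3 the lowest of the 6. All 6 of its probe sets were higher in KO by 0.0481 to 0.26, and the gene differed by 0.20 (adjusted p = 0.796). Dropping KO replicate 1, 2 or 3 gave 0.01, 0.10 and 0.49 in turn, and dropping WT replicate 1 or 2 gave 0.11 and 0.32. Mrps26 differed by 0.18, and Mrps18a, which sits in the large subunit despite its name, by 0.17. The 5 highest genes named Mrpl were Mrpl33 (0.13), Mrpl27 (0.12), Mrpl40 (0.11), Mrpl46 (0.09) and Mrpl4 (0.04), with adjusted p-values of 0.792 to 0.951. Some of these directions turned. Mrpl27 was -0.0109, Mrpl40 -0.00690 and Mrpl46 -0.0549 with the mean of probe sets, and Mrps2 -0.0507 with array weights. Mrpl4, Mrpl27 and Mrpl40 also turned sign when single arrays were left out, whereas Mrps25, Mrps26, Mrps18a and Mrpl33 did not turn under any alternative run. Mrpl33 was 0.02 without WT replicate 2, and Mrpl46 was 0.00574 without WT replicate 1.

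Mrpl30, the member left out by the filter, rested on 1 probe set, since 5 others also carry the name of a second gene. It read 5.72, 4.74 and 5.30 on the WT arrays and 5.98, 6.36 and 6.32 on the KO arrays. All KO values lay above all WT values, but its mean lay under the filter floor of 5.90. Tested as a single probe set it differed by 0.97 (limma adjusted p = 0.569 over all probe sets).

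The array measures exons, so single probe sets were tested as well, each against all 269751. Of the 592 probe sets of the members 0 passed (adjusted p of at least 0.450), where 0.00111% of all probe sets did (0.000741% lower in KO). At an unadjusted p under 0.05 there were 23 lower and 8 higher in KO, or 5.24% against 7.59% of all probe sets (4.37% lower and 3.23% higher). Negative differences made up 65.5% of the members' probe sets and 53% of all. In 9 members every probe set was lower in KO, namely Mrpl13, Mrpl32, Mrpl34, Mrpl36, Mrpl43, Mrpl50, Mrpl52, Mrpl54 and Mrps7, which have 2 to 9 each. In Mrps2 and in the single probe set of Mrpl30 all were higher. The share of all genes with every probe set on one side was not counted.

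**Figure D4:**
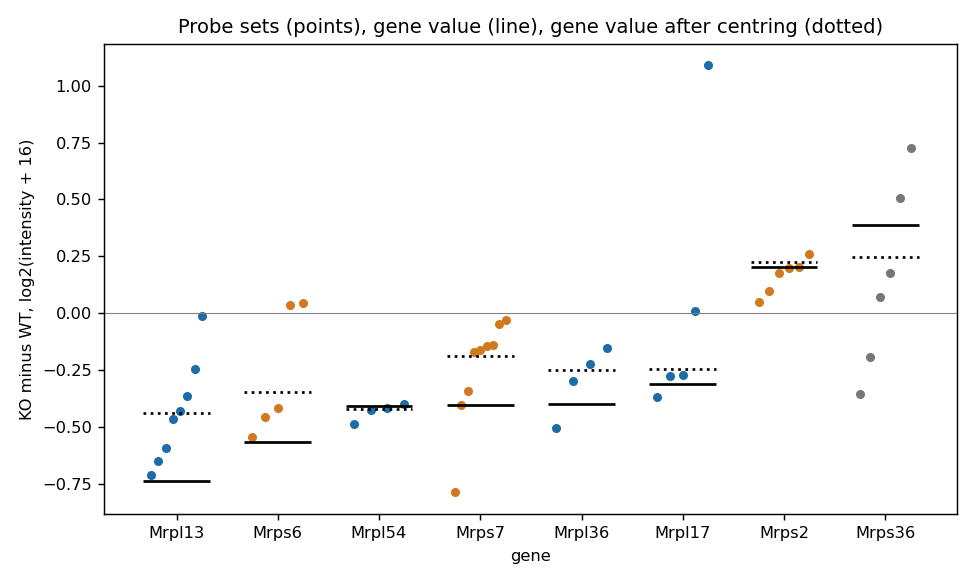
Difference between KO and WT (y axis, log2(intensity + 16)) of each probe set of 8 members (points, ordered by size), with the gene value used in the tests (solid line) and the gene value after centring of probe sets (dotted line). In Mrpl13 and Mrps6 the solid line lies below every point, at -0.74 and -0.56, and the dotted line at -0.44 and -0.35.

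The other genes of mitochondrial translation showed no member past the threshold either. Of 6 tested ribosomal proteins with other names 4 were negative (median -0.07). The 2 with the lowest p were Chchd1, a small subunit protein (-0.41, adjusted p = 0.622), which differed by -0.0624 without KO replicate 1 and -0.0125 after centring of probe sets, and Mrp63, now Mrpl57 (-0.13, 0.793). Of 23 assembly factors 20 were negative (median -0.16), and Fastkd2, which helps ribosomal RNA mature, differed by -0.44 (0.529) and the GTPase Gtpbp5, now Mtg2, by 0.31 (0.542). Fastkd2 was -0.22 without KO replicate 1 and -0.29 without WT replicate 2. Gtpbp5 turned to -0.0233 after centring of probe sets. Of 16 translation factors 13 were negative (median -0.14), with Guf1, a GTPase that acts on stalled ribosomes, at -0.45 (0.425) and 1700021F05Rik, now Mtres1, at -0.41 (0.473). Without KO replicate 1 these were -0.27 and -0.24.

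The enzymes that charge mitochondrial transfer RNA went both ways, with 11 of 19 negative (median -0.03). Yars2, the mitochondrial tyrosyl-tRNA synthetase, read 8.20, 8.20 and 8.27 on the WT arrays and 7.60, 7.53 and 7.68 on the KO arrays. The groups lay well apart, and the difference of -0.62 (SE 0.13, adjusted p = 0.117) was the 1 among the named genes of the pathway to pass under any alternative, with array weights (adjusted p = 0.0474). After centring of probe sets it was -0.39 (adjusted p = 0.360). Fars2, the mitochondrial phenylalanyl-tRNA synthetase, was higher, at 8.37, 8.84 and 8.78 on the WT arrays and 9.02, 9.07 and 9.37 on the KO arrays. Its groups did not overlap, and it differed by 0.49 (adjusted p = 0.345). Among 15 genes that copy, transcribe or process mitochondrial DNA and RNA 8 were negative (median -0.03), with the RNA helicase Supv3l1 at -0.37 (0.353) and Polg2, the accessory subunit of the mitochondrial DNA polymerase, at 0.38 (0.398).

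The respiratory chain, part of which the mitochondrial ribosome makes, and the cytosolic ribosome were set beside the members as a description with no test. The 78 tested nuclear genes of the respiratory chain and ATP synthase had a median of -0.14 with 73.1% negative. The 62 cytosolic ribosomal protein genes had a median of 0.03 with 37.1% negative. In both groups 0 genes passed the adjusted threshold. At an unadjusted limma p under 0.05 there were 8 (10.3%) and 1 (1.61%), against 10.7% of all tested genes.

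**Figure D5:**
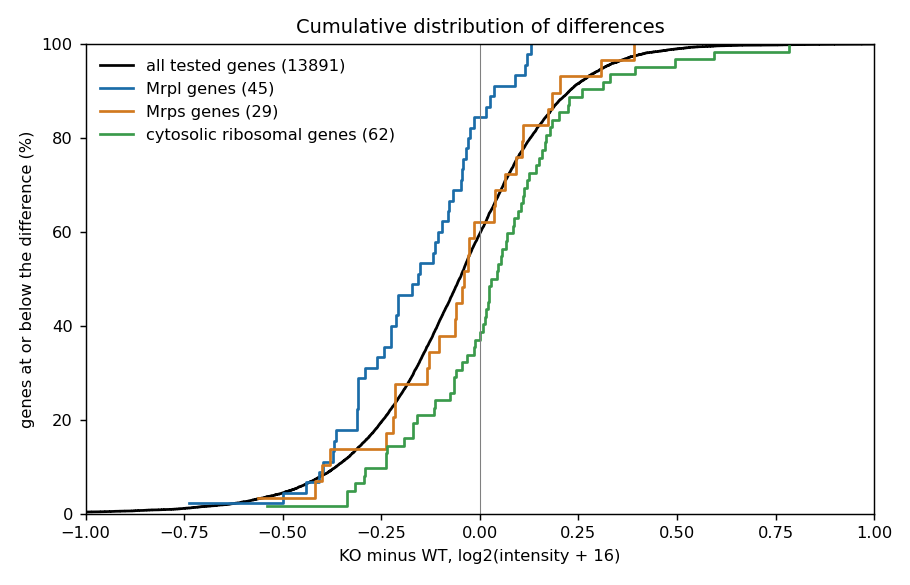
Share of genes (y axis, percent) with a difference between KO and WT at or below each value (x axis, log2(intensity + 16)), for all 13891 tested genes, 45 Mrpl, 29 Mrps and 62 cytosolic ribosomal genes; genes beyond 1 unit are not shown. The Mrpl curve lies to the left of all tested genes around its median of -0.16, the Mrps curve, with a median of -0.04, runs close to all tested genes (-0.05), and the cytosolic curve lies to the right (0.03).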

How the data were processed

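RNA of sorted splenic Tregs was measured on 6 arrays, 3 KO and 3 WT, grouped by their titles. The deposited values are intensities made by exon-level PLIER summarisation in Expression Console 1.4, per the labels and the submitters' processing notes. That they are on a linear scale was assumed here, and all log2 values rest on it. Background correction and normalization between arrays are not given in the sources used here. No depth applies to arrays, and their number limits the precision. Replicates are separate mice, per the labels.

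Gene names came from the platform annotation. Of 269751 probe sets 233753 had 1 name, 5106 several and 30892 none, and only the first were used. Names were matched to RefSeq (GRCm38.p6) for 23122 of 23152 genes and all 75 members. Intensities became log2(intensity + 16), probe sets of a gene were combined by their median, and a floor at the 40th percentile of mean level (5.90) removed 9261 genes. Differences between the groups were tested in R 4.3.3 with limma 3.58.1 (two-sided eBayes statistics from lmFit, Benjamini-Hochberg over 13891 genes, threshold 0.05), and probe sets likewise over all 269751. Limma gave every adjusted p-value and interval. The fit was tested on simulated data with independent noise for each gene and no shift between arrays. That run cannot show how the fit behaves with an array like KO replicate 1.

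Named members were those past the threshold, the 5 lowest and 5 highest of each subunit by name, those without overlap at an unadjusted p under 0.05, those near Park7, below the filter or with the largest spread, and 2 genes with the smallest p of each further list. Mrps11, Mrps12, Mrpl10, Mrpl12, Mrpl45 and others were added after their values were seen. Members and lists were chosen with earlier results of these data known. Alternatives were other pseudocounts (1 and 64), filters, probe-set summaries, normalizations, variance models and thresholds, the replicate number as a block, and each array left out. Centring of probe sets and the promoter and gene pair searches were chosen after the data were seen.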

Additional observations from a re-analysis of the deposited data

How the results depend on the processing

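No alternative among those run gave a member gene or a member probe set past the threshold, with lowest adjusted p-values of 0.12 and 0.379. The count of 38 over all genes (37 lower) was 60 with the mean of probe sets, 69 with probe sets centred, 125 with array weights, 0 in an unmoderated test (1335 at an unadjusted p under 0.05), 74 at an adjusted p of 0.10, and 4 to 37 with an array left out (4 when WT replicate 1 or WT replicate 2 was dropped, 7 when WT replicate 3 and 11 when KO replicate 3 was). With quantile normalization 48 of 55 calls were lower, with median centring 45 of 54, with probe sets centred 60 of 69, with the mean of probe sets 50 of 60, with bright probe sets 26 of 31 and with array weights 105 of 125. The members' median ranged from -0.161 to -0.00245. Signs of genes chosen by the naming rule turned as follows. With the mean of probe sets Mrpl46 was -0.0549, Mrpl40 -0.00690, Mrpl27 -0.0109, Mrpl17 0.0379, Gtpbp5 -0.0204 and Il2ra 0.00400. With bright probe sets Mrpl46 was -0.111 and Mrps31 0.0413. With probe sets centred Mrpl46 was -0.0211, Mrpl27 -0.0183, Gtpbp5 -0.0233 and Il2ra 0.0296. Il2ra was 0.00320 with quantile normalization and 0.101 with median centring, and Mrps2 -0.0507 with array weights. With an array left out, Mrpl27 ranged from -0.130 to 0.302, Mrpl4 from -0.0719 to 0.142, Mrpl40 from -0.0492 to 0.249, Mrps31 from -0.639 to 0.0034 and Il2ra from -0.070 to 0.050. Beyond the number of probe sets or arrays entering, the cause was not tested.

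The replicate number as a block gave 67 genes and 0 members. Correlations of deviations from group means between samples of the same number were 0.150, 0.169 and 0.0101. The values for numbers 1 and 2 were the highest of all pairs between the groups. WT replicate 3 correlated better with KO replicate 1 (0.0304) than with KO replicate 3. Whether samples of the same number share more than the number was not tested.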

Other observations

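Probe sets of both signs were found in 64 of the 75 members. The 3 members described here were picked after their values were seen. In Mrpl19, whose bacterial counterpart L19 sits at the interface of the subunits, probe set 17468001 read 8.04, 8.19 and 8.27 on the WT arrays and 7.40, 7.74 and 7.82 on the KO arrays, a difference of -0.51. Probe set 17468002 of the same gene read 6.86, 6.92 and 7.15 on the WT arrays and 7.58, 7.44 and 7.40 on the KO arrays, a difference of 0.50. The groups did not overlap in either, one lower and one higher in KO, and neither passed (limma adjusted p = 0.599 and 0.571). In Mrps11, the counterpart of bacterial S11, the 9 probe sets ranged from -1.14 to 0.72 around a gene difference of -0.06. Probe set 17250199 of Mrpl55 was higher in KO by 1.46 (adjusted p = 0.548) at a mean level of 5.71, near the dim end, while the gene differed by -0.11.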
